A study of Danio rerio with 73 samples.

Results

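The 43 CpGs described here lie in 2 neighbouring amplicons on zebrafish chromosome 5 (GRCz10), out of 324 CpGs kept over the whole panel and 25217 listed at any depth. They were chosen by position and by depth, as CpGs with at least 10 reads in at least 50% of the fish. The first amplicon runs from chr5:44344567 to 44344999, spans 433 bp and holds 24 CpGs spaced 3 to 76 bp apart. It is called the 44.34 Mb amplicon. The second runs from chr5:44400346 to 44400733, spans 388 bp and holds 19 CpGs spaced 4 to 54 bp apart. It is called the 44.40 Mb amplicon. The gap between them is 55.3 kb, in which 1 CpG was listed, with 14 reads over 12 fish. Each of the 43 CpGs was read on the plus strand. Gene annotation of GRCz10 was not used here, so the amplicons carry no gene names, and exon, intron or promoter position is not given for them.

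DNA methylation is the addition of a methyl group to cytosine, in vertebrates mostly at CpG, a C followed by a G. Methylated promoters are usually silent and CpG-rich promoters of active genes are usually unmethylated, and in zebrafish sperm and eggs carry different methylation patterns. After bisulfite treatment a cytosine without the methyl group is sequenced as T, whereas a methylated one is still sequenced as C, so the share of C among the reads at a CpG gives its level. In zebrafish, heat while the gonads form is known to shift the sex ratio towards males.

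The study measured methylation at promoter regions of 18 genes, by bisulfite conversion and multiplexed PCR, in the gonads of 73 laboratory-reared fish of the AB strain aged 90 days. The fish had been kept at 36 °C or 28 °C during gonad development. Titles carry a prefix, 128 or 204, which the labels leave undefined and which is used as a stratum. The 7 groups were, with prefix 128, testes at 36 °C (12 fish), testes at 28 °C (13 fish) and ovaries at 28 °C (9 fish), and, with prefix 204, testes at 36 °C (8 fish), testes at 28 °C (10 fish), ovaries at 36 °C (12 fish) and ovaries at 28 °C (9 fish). Tanks and families are not named in the labels, and the p-values therefore rest on the spread among these individual fish, which may share either. A gonad is a mixture of germ and somatic cells, and fewer cells with methylated copies cannot be told apart from less methylation in each cell.

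Median depth per fish was 349 to 95214 reads at the 44.34 Mb amplicon (65 fish with a level) and 2745 to 139412 reads at the 44.40 Mb amplicon (71 fish). The 8 fish with no level at the 44.34 Mb amplicon had at most 4 reads there, and 5 of them were among the 9 ovaries at 28 °C with prefix 204, which leaves 4. Total calls per fish were 711295 to 12565602, except for ovary fish 14 (36 °C, prefix 204), with 1404 calls and no level at either amplicon. PCR reads without molecular identifiers are not independent molecules, so intervals from reads cover counting error only. At the edge of the depth rule, the CpG at position 44400733 had 10 or more reads in 49 fish and was kept. The next positions listed in that window, outside the rule, were 44400735 with at most 3 reads and 44400749.

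Earlier results of these data placed 4 libraries labelled testis within the ovary range at other amplicons of the panel, namely fish 20 and 22 at 28 °C with prefix 128 and fish 1 and 17 at 36 °C with prefix 204. They stood apart at the 44.34 Mb amplicon too. Fish 20 and 22 had levels of 27.5% and 32.9%, and the other 11 fish of their group 1.65% to 8.04%. Fish 1 and 17 had 17.7% and 27.3%, and the other 6 fish of their group 2.18% to 8.78%. Where leaving them out ended a call, turned a direction or moved a value by over 1.5 times, the value without them is given beside the result, and whether these libraries match their labels was not tested. These libraries were picked for levels within the ovary range in these same data. Leaving them out therefore tends to widen testis differences from ovaries and to lower the spread among testes. Calls gained without them are not independent support.

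The 44.34 Mb amplicon was methylated at an intermediate level in ovaries of every group, and its level in testes ran from near 0 to the ovary level, depending on the group. The level of a fish is the mean percent methylation over its 24 CpGs. With prefix 128, testes at 36 °C had a lowest, median and highest level of 0.974%, 2.56% and 8.13%, and testes at 28 °C had 1.65%, 2.50% and 32.9%. The ovaries at 28 °C with that prefix had 18.3%, 30.01% and 45.9%. Apart from fish 20 and 22, each testis with prefix 128 lay below each ovary with that prefix.

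With prefix 204, testes at 36 °C had a lowest, median and highest level of 2.18%, 6.16% and 27.3%, and testes at 28 °C had 9.35%, 23.0% and 34.7%. Ovaries at 36 °C had 20.97%, 27.8% and 35.3%, and the 4 ovaries at 28 °C had 21.07%, 22.26%, 25.63% and 35.40%. Of the 10 testes at 28 °C, 6 lay within the range of the ovaries with that prefix and 4 below each of them. Testes at 36 °C lay below the ovaries except for fish 17. Group means in order of level were 3.37% ± 2.676 (SD, n = 10) in testes at 36 °C with prefix 128, 7.32% ± 10.4 (n = 13) in testes at 28 °C with prefix 128, 9.59% ± 8.61 (n = 8) in testes at 36 °C with prefix 204, and 22.4% ± 7.37 (n = 10) in testes at 28 °C with prefix 204. Above these came ovaries at 28 °C with prefix 204 at 26.1% ± 6.502 (n = 4), ovaries at 36 °C with prefix 204 at 28.2% ± 4.25 (n = 11) and ovaries at 28 °C with prefix 128 at 29.8% ± 8.34 (n = 9). Without fish 20 and 22, testes at 28 °C with prefix 128 had 3.16% ± 2.18 (SD, n = 11), which is below testes at 36 °C with that prefix, and without fish 1 and 17, testes at 36 °C with prefix 204 had 5.28% ± 2.30 (n = 6).

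**Figure D1:**
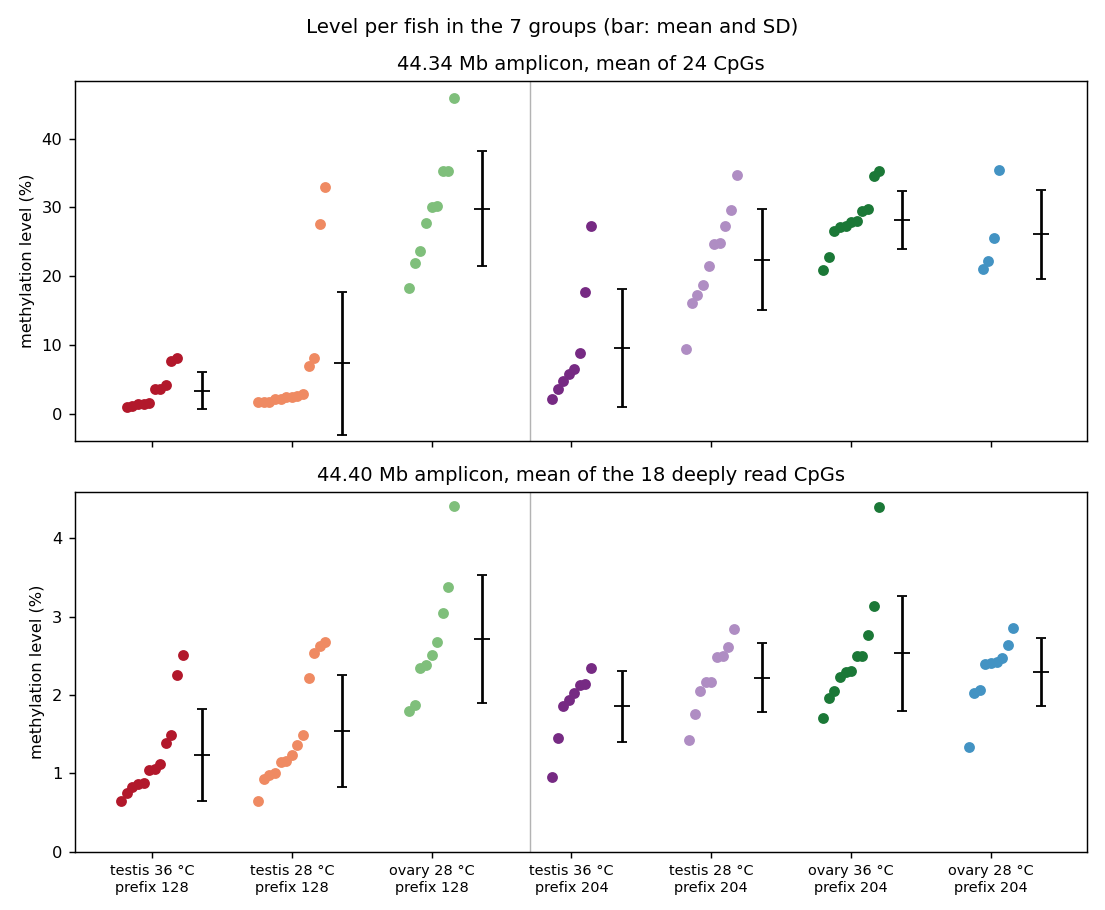
Methylation level (%) of each fish (points) with the group mean and SD (bars) for the 7 groups, at the 44.34 Mb amplicon (upper panel, 24 CpGs) and at the 44.40 Mb amplicon (lower panel, 18 deeply read CpGs, on a smaller scale). Testes with prefix 128 lie at or below 8.13% at the 44.34 Mb amplicon apart from fish 20 and 22 at 27.5% and 32.9%, while testes at 28 °C with prefix 204 reach 34.7%.

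The 24 CpGs did not share 1 level but followed a jagged position profile that kept much of its shape from group to group, least so in the lowest testes. The CpG with the highest mean of the 7 group means was at position 44344955, at 46.2%, and its neighbour 3 bp before it, at 44344952, had 40.2%. The lowest was at 44344705, at 5.86%, followed by 44344819 at 5.90%, and without the 4 testes named above these became 5.50% and 5.43%. Other local peaks stood at 44344617 (31.2%), 44344738 (20.6%) and 44344874 (21.1%), and from 44344955 the level fell off to 32.0% at 44344965 and 22.9% at 44344999. The largest step between neighbours lay between 44344905 at 10.2% and 44344952 at 40.2%, 47 bp apart. A pair of CpGs only 3 bp apart, at 44344735 and 44344738, had means of 9.89% and 20.6%.

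In the ovaries, the first 3 CpGs of the amplicon formed a raised stretch, the middle of the amplicon a low one with single peaks, and the last 4 CpGs the most methylated one. In ovaries at 36 °C with prefix 204 the first 3 had group means of 39.9%, 41.1% and 50.4%. The CpGs from 44344837 to 44344860 had 11.2% to 18.2% in that group. The last 4, from 44344952 on, had 59.5%, 70.8%, 49.1% and 31.7%. In testes at 36 °C with prefix 128 the same profile was nearly flat, from 1.49% at 44344819 to 5.25% at 44344590. Across the 24 CpGs, group means ran from 3.68% to 22.4% in testes at 36 °C with prefix 204 (1.88% to 10.3% without fish 1 and 17), from 5.25% to 62.3% in testes at 28 °C with prefix 204, and from 9.20% to 77.4% in ovaries at 28 °C with prefix 128.

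**Figure D2:**
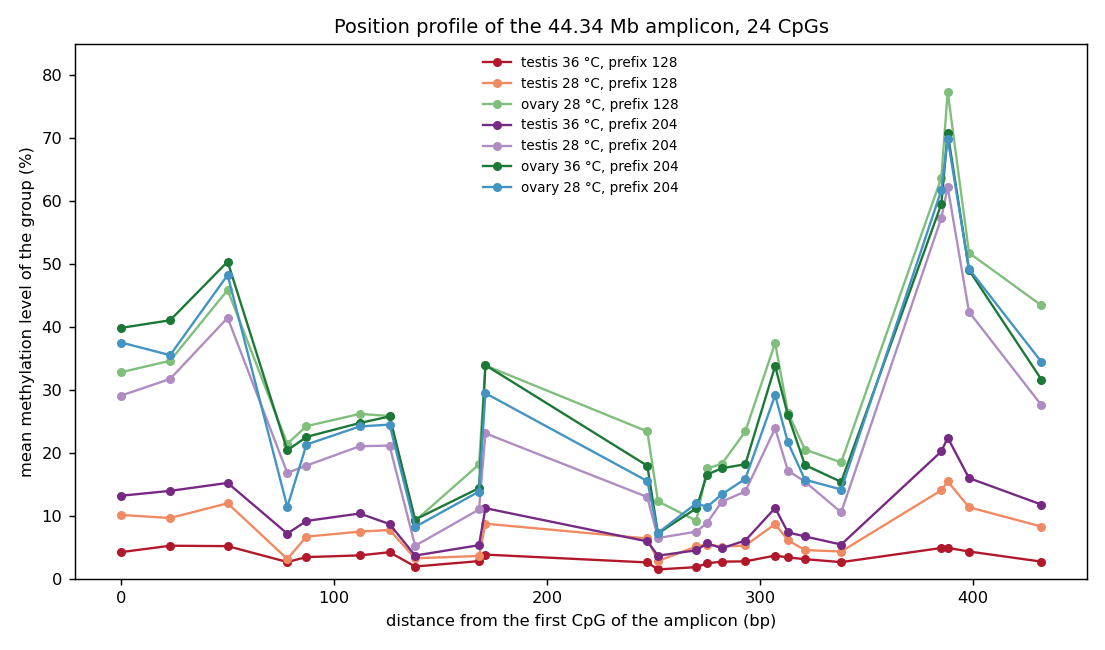
Mean methylation level (%) of each group at the 24 CpGs of the 44.34 Mb amplicon against distance (bp) from its first CpG, 1 line per group. The peak at 388 bp is position 44344955, with 77.4% in ovaries at 28 °C with prefix 128 and 4.91% in testes at 36 °C with prefix 128.

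The shape was much alike in groups of different height, though less so in the lowest testes. Over the 24 CpGs, Pearson's r between the mean profiles of any pair of groups was 0.780 to 0.990, given as a description, since the CpGs share reads and fish. Testes at 28 °C with prefix 128 had r = 0.940 with the ovaries of that prefix, and 0.771 without fish 20 and 22. Without these 2 fish, their group means ran only from 0.626% to 5.25%. Testes at 36 °C with prefix 204 had r = 0.988 with the ovaries at 36 °C, and 0.936 without fish 1 and 17. Set against the ovary profile of the same prefix and temperature, the testis profile had a slope of 0.193 at 28 °C with prefix 128, 0.309 at 36 °C with prefix 204 and 0.887 at 28 °C with prefix 204. The first slope was 0.0608 without fish 20 and 22, and the second was 0.141 without fish 1 and 17. A slope below 1 means that CpGs more methylated in ovary tended to differ by more points, which need not hold for each CpG. Means by the base after the CpG are given as a description and were not tested. CpGs followed by A averaged 23.2% (6 CpGs), by G 21.2% (5 CpGs), by C 16.5% (8 CpGs) and by T 11.5% (5 CpGs), but the ranges overlapped.

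Within a group, CpGs of this amplicon varied together from fish to fish to different degrees. The median r over the 276 CpG pairs was 0.977 in testes at 36 °C and 0.978 in testes at 28 °C with prefix 128, against 0.618 in ovaries at 28 °C with prefix 128. With prefix 204 it was 0.910 in testes at 36 °C, 0.594 in testes at 28 °C, 0.454 in ovaries at 36 °C and 0.846 in the 4 ovaries at 28 °C. In testes at 28 °C with prefix 128 it was 0.951 without fish 20 and 22, and in testes at 36 °C with prefix 204 it was 0.826 without fish 1 and 17. CpGs share reads, and these values are not tested.

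Some CpGs stood near 0 in single fish whose other CpGs were methylated. Among the 24 ovaries with a level, 21 of the 24 CpGs were never below 1%. The exception was mainly position 44344645, which was below 1% in 10 ovaries and had a median of 31.7% in the others. Median depth at that CpG was 2249 reads, against 25912 at 44344654, 9 bp on. The other 2 CpGs with such values were 44344705, in 2 ovaries, and 44344814, in 1. The value at 44344814 rests on only 34 reads, in ovary fish 4 (36 °C, prefix 204). In testis fish 7 (28 °C, prefix 204), 18 of 24 CpGs were below 1% and the other 6 were at 16.2% to 68.6%, with 22324 reads at position 44344965. That fish has the lowest level of its group, 9.35%, and no level at the 44.40 Mb amplicon.

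The 44.40 Mb amplicon was almost unmethylated in every group, except at its first CpG and in the few reads at its last CpG. Its first CpG, at 44400346, had group means of 5.10% to 20.2%. The next 17 CpGs had group means of 0.319% to 4.09%, the higher of them at 44400502 and 44400517, with means over groups of 2.78% and 2.77%. The lowest was at 44400706, at 0.622%. Levels of these 17 CpGs lie near 0, and the rate of bisulfite conversion was not examined here. The last CpG, at 44400733, is the most methylated and by far the shallowest. It had 928 methylated of 1246 reads over all fish, 74.5% (95% Wilson interval 72.0 to 76.8), and a median of 18 reads in the 49 fish with 10 or more, against a median of 27907 reads at 44400706, its neighbour 27 bp before it. Pooled by group it was at 65.6% to 81.6%. At 44400735, the next position listed, outside the rule, 0 of 18 reads were methylated.

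**Figure D3:**
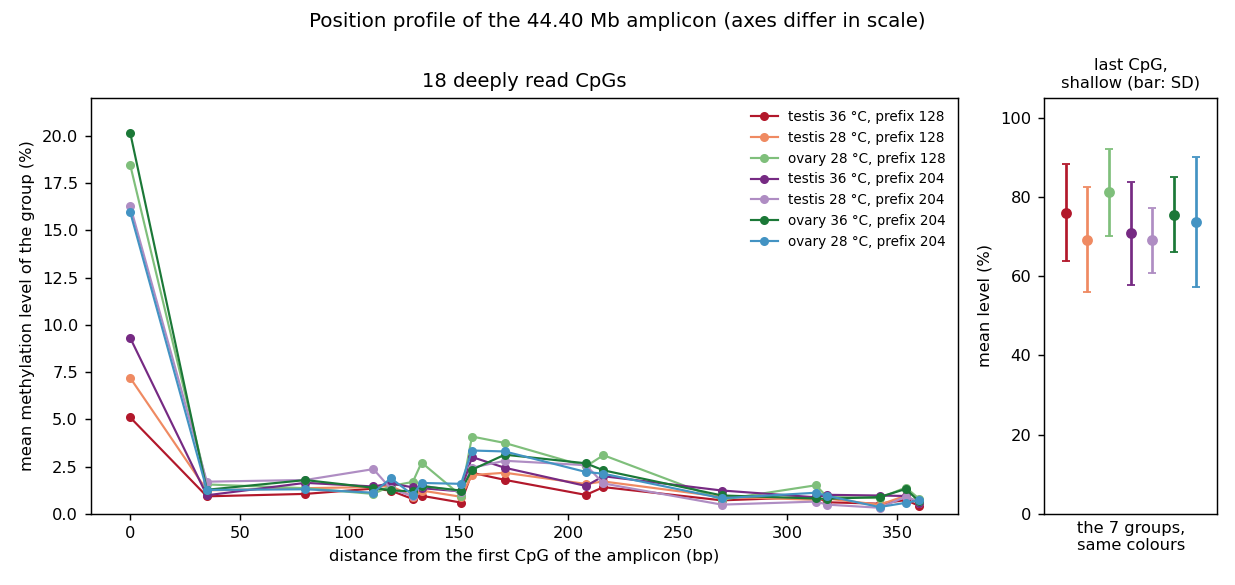
Mean methylation level (%) of each group at the 18 deeply read CpGs of the 44.40 Mb amplicon against distance (bp) from its first CpG (left panel), and at the shallow last CpG (right panel, mean and SD, other scale). The first CpG lies between 5.10% and 20.2% and the following 17 CpGs between 0.319% and 4.09%, while the last CpG is 74.5% methylated over all reads.

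Because the last CpG enters the mean only in fish that read it 10 times or more, it moves the level of this amplicon between fish. It had such depth in 12 of 12 testes at 36 °C with prefix 128, but in 4 of 8 testes at 36 °C with prefix 204. With all 19 CpGs, group means of the amplicon were 3.68% to 5.48%, and with the other 18 CpGs they were 1.23% to 2.71%. The values below are for the 18 CpGs, a choice made after the data were seen, and those for 19 CpGs are given beside them where the call or the direction differs. With 18 CpGs, testes had 1.23% ± 0.591 (SD, n = 12) at 36 °C and 1.54% ± 0.714 (n = 13) at 28 °C with prefix 128, and 1.85% ± 0.449 (n = 8) at 36 °C and 2.22% ± 0.444 (n = 9) at 28 °C with prefix 204. Ovaries had 2.71% ± 0.811 (n = 9) at 28 °C with prefix 128, 2.53% ± 0.730 (n = 11) at 36 °C with prefix 204 and 2.29% ± 0.438 (n = 9) at 28 °C with prefix 204.

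The first CpG of the 44.40 Mb amplicon was lowest in the same 3 groups, by group mean, as the distant 44.34 Mb amplicon, namely both testis groups with prefix 128 and testes at 36 °C with prefix 204. In testes with prefix 128 its lowest, median and highest values were 1.51%, 4.07% and 12.6% at 36 °C, and 2.81%, 4.37% and 17.9% at 28 °C. In ovaries at 28 °C with that prefix they were 8.65%, 18.3% and 28.1%. In testes with prefix 204 they were 3.92%, 8.37% and 16.9% at 36 °C, and 10.1%, 16.2% and 21.4% at 28 °C. Ovaries with prefix 204 had 8.15%, 18.6% and 44.9% at 36 °C, and 10.3%, 16.7% and 19.6% at 28 °C. All of these groups overlapped with at least 1 other, and the testes with prefix 128 were lowest.

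Testes were compared with ovaries to see whether the gonads differ at these CpGs. Differences are in percentage points, each a difference of group means over fish, tested by a two-sided permutation test, exact where a side had under 10 fish, with Benjamini-Hochberg adjustment over all kept CpGs, or over all amplicons, of the comparison. At 28 °C with prefix 128, the 44.34 Mb amplicon was lower in testes by a difference of -22.5 points (SE 4.01; 13 and 9 fish), with 12 of 13 testes below the ovary mean (exact permutation test, adjusted p = 0.000362). Without fish 20 and 22 it was -26.7 points. All 24 CpGs were lower in testes, and 23 of them were called. Over the whole panel 9.57% of CpGs were called lower and 25.6% higher, so that the 31 CpGs called lower consisted mostly of these 23, with 5 more in the 44.40 Mb amplicon. The median difference was -18.2 points over the 24 CpGs and 0.0537 points over all 324.

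At single CpGs of that comparison, position 44344955 had 15.5% ± 25.6 (SD, n = 13) in testes and 77.4% ± 5.23 (n = 9) in ovaries, a difference of -61.9 points (SE 7.31). Testes ranged from 2.55% to 77.9% there and ovaries from 68.3% to 85.2%. The ranges overlapped only through fish 22, since no CpG of fish 20 was above 67.1%. The testes averaged 5.12% ± 3.49 (SD, n = 11) at 44344955 without fish 20 and 22, and the difference was -72.3 points. The differences were -49.7 points at 44344952, -40.4 at 44344965, -35.1 at 44344999 and -33.9 at 44344617. The CpG that was not called, 44344837, differed by -4.09 points. Without fish 20 and 22, picked for levels in the ovary range, it differed by -7.41 points and passed (exact permutation test, adjusted p = 9.85e-05). The difference was larger in the second 12 CpGs than in the first 12. The second-half mean minus the first-half mean was 1.01 points in testes and 8.29 points in ovaries, a difference of -7.28 (exact permutation test, adjusted p = 0.00261). Without fish 20 and 22 the testis value was -0.0908 points and the difference -8.39.

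At the 44.40 Mb amplicon the same comparison gave -1.18 points over 18 CpGs (exact permutation test, adjusted p = 0.00292) and -1.75 points over 19 CpGs (adjusted p = 0.0848). The first CpG had 7.20% ± 5.46 (SD, n = 13) in testes and 18.5% ± 6.40 (n = 9) in ovaries, a difference of -11.3 points (SE 2.62; exact permutation test, adjusted p = 0.00219). The other 4 CpGs called were lower in testes by small amounts, -0.775 points at 44400475, -1.48 at 44400479, -2.04 at 44400502 and -1.39 at 44400562. Without fish 20 and 22 the call at 44400475 was lost (-0.800 points; exact permutation test, adjusted p = 0.0510), and the difference over 19 CpGs was -2.16 points and passed (adjusted p = 0.0396).

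At 28 °C with prefix 204 no difference between the gonads was detected at either amplicon. The 44.34 Mb amplicon differed by -3.69 points (SE 4.00; 10 testes and 4 ovaries; exact permutation test, adjusted p = 0.725), with 23 of 24 CpGs lower in testes by up to -8.44 points. The 44.40 Mb amplicon differed by -0.0709 points over 18 CpGs, and its first CpG had 16.3% ± 3.74 (SD, n = 9) in testes and 16.0% ± 3.41 (n = 9) in ovaries. Calls numbered 0 of the 43 CpGs and 0% of the 324 CpGs by the permutation test, and limma and a quasi-binomial model also called 0 of the 43. At an unadjusted p below 0.05 there were 0 CpGs in the first amplicon and 1 in the second. The difference between the gonads was itself different in the 2 prefixes, by -18.8 points at the 44.34 Mb amplicon (permutation of residuals, adjusted p = 0.00889). The smallest of the 4 groups in that test had 4 fish. At the 44.40 Mb amplicon that difference was -1.11 points over 18 CpGs (permutation of residuals, adjusted p = 0.0128) and -1.13 points over 19 CpGs (adjusted p = 0.427).

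At 36 °C, where only prefix 204 has ovaries, the 44.34 Mb amplicon again was lower in testes, by a difference of -18.6 points (SE 3.30; 8 and 11 fish), with 8 of 8 testes below the ovary mean (exact permutation test, adjusted p = 0.000463). Without fish 1 and 17 it was -22.9 points. All 24 CpGs were lower in testes and 22 of them were called, against 7.1% of the panel called lower, which is 23 CpGs in all, and the remaining 1 was the first CpG of the 44.40 Mb amplicon. Higher calls made up 26.5% of the panel and none lay in the 44.34 Mb or the 44.40 Mb amplicon.

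The order of CpGs was much as at 28 °C with prefix 128. Position 44344955 had 22.4% ± 22.9 (SD, n = 8) in testes and 70.8% ± 6.34 (n = 11) in ovaries, a difference of -48.4 points (SE 8.33). The testes averaged 10.3% ± 4.81 (SD, n = 6) without fish 1 and 17, and the difference was -60.6 points. Differences were -39.3 points at 44344952, -35.2 at 44344617, -33.1 at 44344965 and -27.1 at 44344590. The second 12 CpGs minus the first 12 gave 1.22 points in testes and 5.01 points in ovaries, a difference of -3.79 (exact permutation test, adjusted p = 0.0353), which did not pass at a minimum of 100 reads (adjusted p = 0.0559). The testis value was -0.297 points without fish 1 and 17 and the difference -5.30 (exact permutation test, adjusted p = 0.00154). The first CpG of the 44.40 Mb amplicon had 9.31% ± 4.51 (SD, n = 8) in testes and 20.2% ± 9.73 (n = 11) in ovaries, a difference of -10.9 points (SE 3.34; exact permutation test, adjusted p = 0.0173). Over 18 CpGs that amplicon differed by -0.678 points (exact permutation test, adjusted p = 0.0314), and over 19 CpGs by -1.66 points (adjusted p = 0.0646). The 18-CpG call was lost without testis fish 2 (-0.549 points, exact permutation test, unadjusted p = 0.0594). Without the first CpG, the other 17 CpGs averaged 1.42% ± 0.319 in testes and 1.49% ± 0.276 in ovaries, which was not tested.

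**Figure D4:**
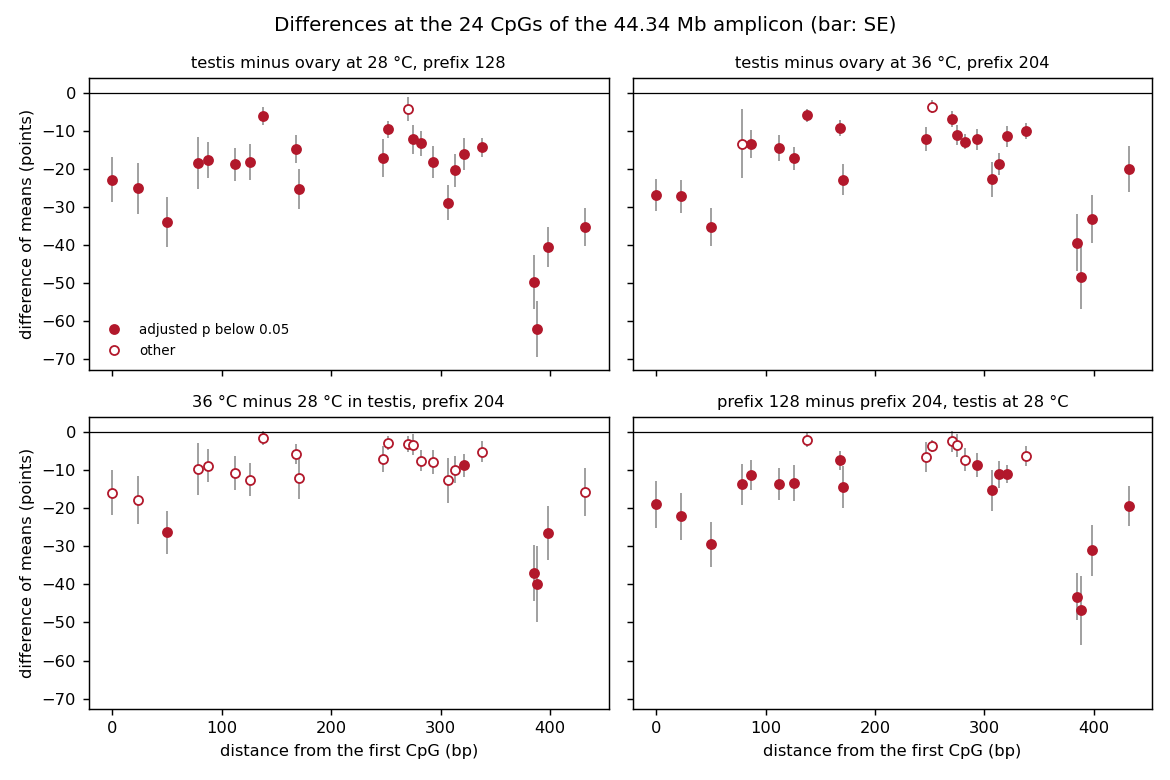
Difference of group means (percentage points, bars are SE) at each of the 24 CpGs of the 44.34 Mb amplicon against distance (bp) from its first CpG, in 4 comparisons, with filled points at an adjusted p below 0.05. The largest differences, down to -61.9 points, lie at 388 bp, position 44344955, in each of the 4 panels.

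Testes reared at 36 °C were compared with testes reared at 28 °C to see whether early heat went with a lasting difference. The 28 °C testes with prefix 204 were themselves not told apart from ovaries at 28 °C. Testis minus ovary there was -3.69 points, with 0% of the panel called, and whether these testes match their labels was not tested. With prefix 204, the 44.34 Mb amplicon was lower at 36 °C by a difference of -12.8 points (SE 3.83; 8 and 10 fish), with 7 of 8 fish below the 28 °C mean (exact permutation test, adjusted p = 0.00777). Without fish 1 and 17 it was -17.1 points. Of the 24 CpGs, 5 were called lower, against 1.85% of the panel, which is 6 CpGs in all. The number was 19 without fish 1 and 17 and 21 by the quasi-binomial model, and the share of the panel under these alternatives is not given here. In that comparison 29.3% of the panel was called higher, with 0 of these CpGs in the 44.34 Mb amplicon.

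The heated testes with prefix 204 differed most at the same peaks. Position 44344955 had 22.4% ± 22.9 (SD, n = 8) at 36 °C and 62.3% ± 18.1 (n = 10) at 28 °C, a difference of -39.9 points (SE 9.93). Position 44344952 differed by -37.1 points, with 4.21% to 53.9% at 36 °C and 53.1% to 64.4% at 28 °C, where only the highest heated testis reached the lowest at 28 °C. The other called CpGs were 44344965 at -26.4 points, 44344617 at -26.2 and 44344888 at -8.71.

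At the 44.40 Mb amplicon the heated testes with prefix 204 were lower at the first CpG, with 9.31% ± 4.51 (SD, n = 8) at 36 °C and 16.3% ± 3.74 (n = 9) at 28 °C, a difference of -6.99 points (SE 2.02; exact permutation test, adjusted p = 0.0176). They were higher, by under 1 point and at levels near 0, at 3 CpGs near its far end. That is 15.8% of its 19 CpGs, against 29.3% of the panel called higher. The 3 CpGs were 44400616 with 1.23% at 36 °C and 0.485% at 28 °C, 44400664 with 1.003% at 36 °C and 0.485% at 28 °C, and 44400688 with 0.966% at 36 °C and 0.319% at 28 °C. The call at 44400664 was lost without fish 1 and 17, at 0.348 points (exact permutation test, adjusted p = 0.123). The mean over 18 CpGs differed by -0.367 points (exact permutation test, adjusted p = 0.148).

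With prefix 128 no difference between temperatures was detected in testes at single CpGs or in the level of either amplicon. The 44.34 Mb amplicon differed by -3.95 points (SE 3.01; 10 and 13 fish; permutation test, adjusted p = 0.572). Without fish 20 and 22, which hold the high levels at 28 °C, the difference was 0.217 points. The permutation test, limma and the quasi-binomial model each called 0 of the 43 CpGs, the permutation test called 0% of the 316 CpGs tested, and at an unadjusted p below 0.05 there were 0 CpGs in either amplicon. The 44.40 Mb amplicon differed by -0.302 points over 18 CpGs (-0.112 without fish 20 and 22) and 1.44 points over 19 CpGs (permutation test, adjusted p = 0.253). A contrast within the 44.40 Mb amplicon passed, and it rested on the shallow last CpG. The mean of the last 9 CpGs minus that of the first 9 was 7.57 points at 36 °C and 3.66 points at 28 °C, a difference of 3.91 (permutation test, adjusted p = 0.0387), and the difference was 0.203 points without that CpG (adjusted p = 0.670). Between the prefixes, the temperature differences at the 44.34 Mb amplicon differed by 8.86 points (permutation of residuals, adjusted p = 0.109), and by 17.3 points without the 4 testes named above (adjusted p = 1.8e-05).

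In ovaries, where only prefix 204 has both temperatures, the 44.34 Mb amplicon differed by 2.07 points (SE 3.49; 11 fish at 36 °C and 4 at 28 °C; exact permutation test, adjusted p = 0.679). Without ovary fish 13 at 28 °C, which had 35.40%, it was 5.17 points (exact permutation test, unadjusted p = 0.0495). That left fewer ovaries at 28 °C than the minimum of 4 a side set for the main tests. Calls numbered 0 of the 43 CpGs and 0% of the panel by the permutation test, and 0 of the 43 by limma and by the quasi-binomial model, with 0 CpGs of the first and 1 of the second amplicon at an unadjusted p below 0.05. The temperature difference with prefix 204 differed between testis and ovary by -14.9 points at the 44.34 Mb amplicon (permutation of residuals, adjusted p = 0.0115).

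The prefixes were compared within a tissue and temperature, since they split the testes. These comparisons share their fish with those above. The 28 °C testes with prefix 204 are again those not told apart from ovaries above. At 28 °C, testes with prefix 128 were below testes with prefix 204 by a difference of -15.1 points at the 44.34 Mb amplicon (SE 3.71; 13 and 10 fish), with 11 of 13 below the mean of prefix 204 (permutation test, adjusted p = 0.00227). Without fish 20 and 22 it was -19.2 points. Of the 24 CpGs, 17 were called lower, against 8.33% of the panel called lower and 26.5% called higher. Position 44344955 had 15.5% ± 25.6 (SD, n = 13) with prefix 128 (5.12% ± 3.49, n = 11, without fish 20 and 22) and 62.3% ± 18.1 (n = 10) with prefix 204. The largest differences after it were -43.3 points at 44344952, -31.0 at 44344965, -29.5 at 44344617 and -22.1 at 44344590. The first CpG of the 44.40 Mb amplicon was lower too, with 7.20% ± 5.46 (SD, n = 13) with prefix 128 and 16.3% ± 3.74 (n = 9) with prefix 204 (-9.11 points; exact permutation test, adjusted p = 0.00309). It was the only 1 of 19 CpGs called there. The level of that amplicon differed by -0.684 points over 18 CpGs (exact permutation test, adjusted p = 0.0286) and by -0.452 points over 19 CpGs (adjusted p = 0.602). The mean of the second 12 CpGs of the 44.34 Mb amplicon minus that of the first 12 was 1.01 points with prefix 128 and 5.08 points with prefix 204, a difference of -4.07 (permutation test, adjusted p = 0.0125), and -5.17 without fish 20 and 22.

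At 36 °C, testes with prefix 128 were below testes with prefix 204 by a difference of -6.21 points at the 44.34 Mb amplicon (SE 3.16; 10 and 8 fish; exact permutation test, adjusted p = 0.0301). This rested on fish 1 and 17. Without them the difference was -1.90 points (exact permutation test, adjusted p = 0.284), and without fish 17 alone -3.68 points (exact permutation test, unadjusted p = 0.0547). Of the 24 CpGs, 8 were called lower, against 22.5% of the panel called lower and 12.3% called higher, and limma and the quasi-binomial model called 0. The largest difference was -17.5 points at 44344955, with 4.91% ± 3.83 (SD, n = 10) with prefix 128 and 22.4% ± 22.9 (n = 8) with prefix 204. Differences were -15.3 points at 44344952, -11.7 at 44344965, -10.0 at 44344617 and -8.97 at 44344567. Without fish 1 and 17 the difference at 44344955 was -5.36 points (exact permutation test, adjusted p = 0.0817), and 0 of the 24 CpGs were called.

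At the 44.40 Mb amplicon the heated testes of the 2 prefixes differed in opposite directions with and without the shallow last CpG. Over 19 CpGs the difference was 1.49 points (exact permutation test, adjusted p = 0.0301), which limma did not call (adjusted p = 0.0597) and the quasi-binomial model gave as -0.583 points without a call, and over 18 CpGs -0.619 points (exact permutation test, adjusted p = 0.0353). The 3 CpGs called, 44400497, 44400664 and 44400688, were lower with prefix 128 by under 1 point each, at levels near 0. That is 15.8% of the 19 CpGs, against 22.5% of the panel called lower. Limma called 0 CpGs there and the quasi-binomial model 1. Without fish 1 and 17 neither level was called, at 1.01 points over 19 CpGs (exact permutation test, adjusted p = 0.192) and -0.490 points over 18 CpGs (adjusted p = 0.187), and 44400616 was called in place of 44400664, at -0.594 points (adjusted p = 0.0390). The first CpG was not called, at -4.21 points (exact permutation test, adjusted p = 0.0722). The other 17 deeply read CpGs averaged 1.01% with prefix 128 and 1.42% with prefix 204, which was not tested. The mean of the last 9 CpGs minus that of the first 9 was 7.57 points with prefix 128 and 2.57 points with prefix 204, a difference of 5.001 (exact permutation test, adjusted p = 0.0240), and without the shallow CpG the difference was 0.493 points (adjusted p = 0.174). The contrast over all 19 CpGs was 3.4998 points without fish 1 and 17 and was not called (adjusted p = 0.154). In ovaries at 28 °C the 44.34 Mb amplicon differed between prefixes by 3.74 points (SE 4.28; 9 fish with prefix 128 and 4 with prefix 204; exact permutation test, adjusted p = 0.735). Calls numbered 0 of the 43 CpGs by that test, limma and the quasi-binomial model, while 2.47% of the panel was called higher and 0.926% lower by that test, with 0 CpGs of the first and 1 of the second amplicon at an unadjusted p below 0.05.

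Both amplicons had a level in 64 fish, and their relation was examined within groups of at least 6 fish. Fish with more methylation at the 44.34 Mb amplicon had more at the first CpG of the 44.40 Mb amplicon in some groups of testes. In testes at 36 °C with prefix 128, r was 0.957 and Spearman's rho 0.915 (n = 10; permutation test, adjusted p = 0.00051 for r and 0.00384 for rho), and r was 0.864 without the 2 fish farthest from the median. In testes at 28 °C with prefix 128 fish 20 and 22 form a cluster of their own. In the other 11, r was 0.945 (permutation test, unadjusted p = 0.00831) and rho 0.445, and 2 of these 11, fish 2 and 18, with 8.04% and 6.88% at the 44.34 Mb amplicon, stand above the rest. In testes at 36 °C with prefix 204, r was 0.798 and rho 0.881 (n = 8; exact permutation test, adjusted p = 0.0305 for r and 0.0217 for rho). Without fish 1 and 17, r was 0.827 over 6 fish.

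In the remaining groups no such relation passed. Testes at 28 °C with prefix 204 had r = 0.584 and rho = 0.70 (n = 9; exact permutation test, adjusted p = 0.150 for r and 0.0649 for rho). In ovaries at 28 °C with prefix 128 r was 0.0432, with levels of 18.3% to 45.9% at the 44.34 Mb amplicon. In ovaries at 36 °C with prefix 204 r was -0.151, with levels of 20.97% to 35.3% there. Adjustment was over the 6 groups. Whether the relation differs between groups was not tested, and both amplicons of a fish come from 1 library. The mean of the other 17 CpGs of the 44.40 Mb amplicon had r = 0.830 in testes at 36 °C with prefix 128 (n = 10; permutation test, adjusted p = 0.0110), where rho was 0.745 and did not pass (adjusted p = 0.0937) and r was 0.647 without the 2 fish farthest from the median (permutation test, unadjusted p = 0.0820). It had r = 0.384 at 36 °C with prefix 204, and 0.801 without fish 1 and 17 (exact permutation test, unadjusted p = 0.0569). With all 19 CpGs no group passed, and ovaries at 36 °C with prefix 204 had r = -0.589 (n = 11; permutation test, adjusted p = 0.273).

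**Figure D5:**
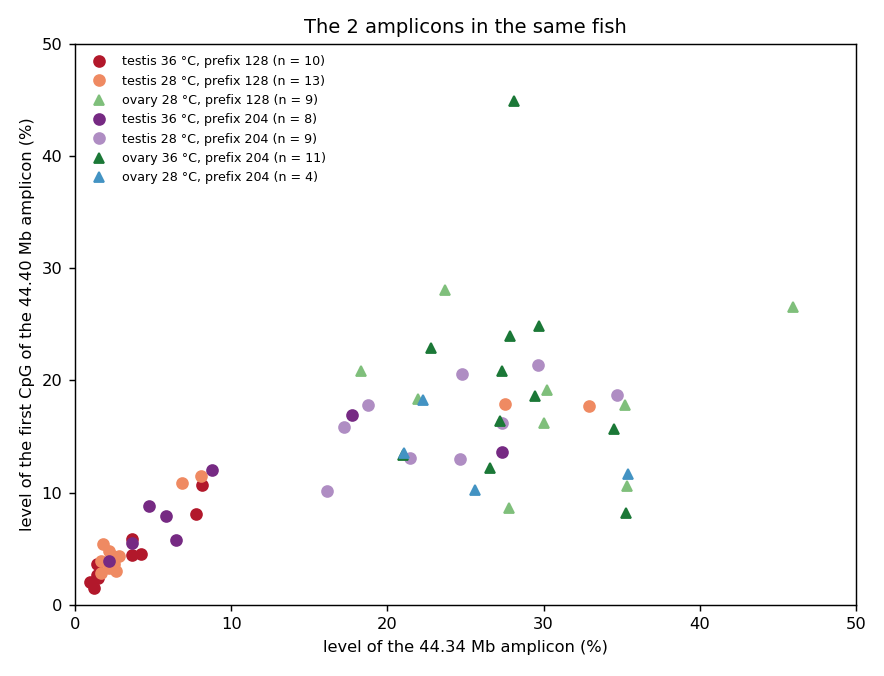
Level (%) of the first CpG of the 44.40 Mb amplicon against the level (%) of the 44.34 Mb amplicon in the 64 fish with both, coloured by group, with circles for testes and triangles for ovaries. Apart from fish 20 and 22, testes with prefix 128 lie at the lower left, at or below 8.13% at the 44.34 Mb amplicon, while ovaries form a cloud with r of 0.0432 and -0.151 in the 2 groups that were large enough.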

How the data were processed

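Per the labels' protocols, gonad DNA was bisulfite-converted, amplified in multiplex and sequenced on an Illumina HiSeq. The authors deposited 1 table per fish that holds, at each CpG, counts of reads called methylated and unmethylated, whole and not normalized. Per the submitters' processing notes, Trim Galore 0.4.5, FastQC 0.11.6, Bowtie2, Bismark 16.0 and the build GRCz10 were used. The sources used here give neither primers nor any removal of PCR duplicates. The treatments HT and LT were taken to be 36 °C and 28 °C, the temperatures that the series design names.

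From these counts, the percent methylated of all reads was computed per CpG and fish at 10 reads or more. CpGs with that depth in 50% of fish were grouped into 20 amplicons, with gaps of at most 200 bp, and an amplicon's level averages its CpG levels if at least 50% of them exist. The 9 comparisons used two-sided permutation tests over fish, at least 4 a side, exact under 10 fish and otherwise with 100000 resamples (numpy 2.4.6, scipy 1.17.1, Python 3.11.15), adjusted by Benjamini-Hochberg over all kept CpGs or amplicons at 0.05. Interactions permuted residuals of the additive model. Alternatives were limma 3.58.1 on percent levels, a quasi-binomial logistic model (R 4.3.3), minimums of 5, 30 and 100 reads, CpGs in 80% of fish, pooled counts and fish left out. Profiles, single-CpG values and contrasts within an amplicon without the 4 testes that stood apart were added after the data were seen. The tests were tested on simulated data. Fish numbers shared between groups were not taken as pairs in the main tests. Between temperatures, testes with prefix 128 had 7 shared numbers, with correlations of deviations of -0.613 to 0.461. With prefix 204, ovaries had 6, with -0.154 to 0.134, and testes had 3, with -0.0517 to 0.259. Between prefixes, testes at 36 °C had 5, with -0.404 to -0.0181. At 28 °C each tissue had only 2, with 0.133 and 0.162 in testes and 0.159 and 0.473 in ovaries.

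Named CpGs are the highest and lowest of each amplicon, the largest step, and up to 5 CpGs per comparison with the largest difference past the threshold. Others, such as the first CpG of the 44.40 Mb amplicon and those near 0 in single fish, were named after their values were seen. The CpGs, tests and alternatives were chosen with earlier results of these data known. Ovary fish 14 (36 °C, prefix 204) entered no comparison here. No 2 libraries held identical counts (0 pairs).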

Additional observations from a re-analysis of the deposited data

Results flagged for a closer look

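At the 44.34 Mb amplicon, the gonad difference at 28 °C was not the same in both prefixes. Testis minus ovary was -22.5 points with prefix 128 and -3.69 points with prefix 204, a difference of -18.8 points (permutation of residuals, adjusted p = 0.00889), and -23.0 points without fish 20 and 22. With prefix 204 the difference between 36 °C and 28 °C was -12.8 points in testes and 2.07 points in ovaries, a difference of -14.9 points (permutation of residuals, adjusted p = 0.0115), and -19.2 points without fish 1 and 17. Both tests include the 4 ovaries at 28 °C with prefix 204 that had a level.

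Testis fish 1 (36 °C, prefix 204) stood far from its group in the contrast between the second and first 12 CpGs of the 44.34 Mb amplicon. The mean of its second 12 CpGs exceeded that of its first 12 by 8.43 points, and the next highest fish of the group had 3.10 points. Fish 1 is among the 4 testes that stood apart, with a level of 17.7%, below that of each ovary with prefix 204. In the same contrast, ovaries at 36 °C with prefix 204 had 2.88 to 9.79 points. Of 22 groups of values examined, 1 was set apart, and chance sets apart about 1 in 20.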

How the results depend on the processing

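The differences at the 44.34 Mb amplicon between testis and ovary (28 °C with prefix 128, 36 °C with prefix 204), between temperatures in testes with prefix 204 and between prefixes in testes at 28 °C kept their direction and their side of the threshold under every alternative run. With each fish left out in turn, their ranges were -24.6 to -20.5, -21.1 to -17.5, -15.3 to -11.4 and -17.2 to -13.7 points. Without the 4 testes that stood apart, the temperature difference with prefix 128 was 0.217 points, the prefix difference at 36 °C -1.90 points, and the interaction of temperature and prefix 17.3 points and past the threshold. The prefix difference at 36 °C was also lost with limma (-6.21 points) and with the quasi-binomial model (-3.59 points). CpGs called there numbered 0 by limma, by the quasi-binomial model and without the 4 testes, in place of 8. In testes with prefix 204, CpGs called between temperatures numbered 19 without those testes and 21 by the quasi-binomial model, in place of 5. Shares of the whole panel called under the alternatives are not given here, for either amplicon. Without those 4 testes the second minus the first 12 CpGs gave -5.37 points between temperatures with prefix 204, now past the threshold, and 0.137 points between prefixes at 36 °C, reversed. That difference between gonads at 36 °C was -3.64 points and lost its call at a minimum of 100 reads. Except where said, the cause of these changes was not tested.

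The 44.40 Mb amplicon depended on its shallow last CpG. Without it, and likewise at minimums of 30 and 100 reads and with CpGs in 80% of fish, which remove it by construction, testis minus ovary was -1.18 points (28 °C, prefix 128) and -0.678 points (36 °C), both now past the threshold. The temperature difference in testes with prefix 128 was -0.302 points, reversed, the prefix difference in testes -0.684 points at 28 °C, now past the threshold, and -0.619 points at 36 °C, reversed. Pooled counts gave -1.20, -0.723, -0.302, -0.726 and -0.628 points in the same order. The quasi-binomial model gave -0.960 and -0.634 points between gonads, -0.407 points between temperatures with prefix 128 and -0.583 points between prefixes at 36 °C. A minimum of 5 reads gave 0.356 points between temperatures in testes with prefix 204, -0.186 in ovaries, and 0.264 and 0.428 between prefixes in testes at 28 °C and 36 °C. Without the 4 testes, testis minus ovary at 28 °C with prefix 128 was -2.16 points and the prefix difference at 36 °C 1.01 points, and limma gave 1.49 points for that prefix difference without a call. The second minus the first 9 CpGs, without the shallow CpG, gave 1.11 and 0.896 points between gonads, in place of -0.0143 and -1.17 points. It gave 0.203 and -0.179 points between temperatures in testes with prefix 128 and in ovaries, in place of 3.91 points with a call and 0.484. It gave 1.24, 0.493 and -0.101 points between prefixes in testes at 28 °C, testes at 36 °C and ovaries, in place of 1.77 points, 5.001 points with a call and 0.412. With the shallow CpG but without the 4 testes it gave 0.327 points between gonads at 36 °C, reversed, and 3.4998 points between prefixes at 36 °C, without a call. The interaction of tissue and prefix was -1.11 points and passed, in place of -1.13 points. CpGs called were 3 by the quasi-binomial model between gonads at 28 °C (in place of 5), 2 by limma between temperatures with prefix 204 (in place of 4), 3 at a minimum of 5 reads, 3 without the 4 testes and 2 by the quasi-binomial model between prefixes at 28 °C (in place of 1), and 0 by limma and 1 by the quasi-binomial model between prefixes at 36 °C (in place of 3).

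The relation of both amplicons, which did not pass with 19 CpGs, had r = 0.884, 0.761 and 0.704 without the shallow CpG in testes at 36 °C and 28 °C with prefix 128 and at 36 °C with prefix 204. Both values with prefix 128 passed (permutation test, adjusted p = 0.00162), the 28 °C value with fish 20 and 22. The value with prefix 204 did not (exact permutation test, adjusted p = 0.118), while its rho of 0.976 did (adjusted p = 0.00238). With the first CpG, r was 0.957, 0.932 and 0.798 in the same groups, the 28 °C value with fish 20 and 22. With the other 17 CpGs it was 0.830 at 36 °C with prefix 128, 0.585 at 28 °C with prefix 128, with fish 20 and 22, and 0.384 at 36 °C with prefix 204. Without the 2 fish farthest from the median it was 0.211 in testes and -0.758 in ovaries at 36 °C with prefix 204, with 19 CpGs. The ovary value had an unadjusted p of 0.00627 (n = 9; exact permutation test). With all 11 ovaries r was -0.589 (permutation test, adjusted p = 0.273). With 18 CpGs r was -0.227 in the same 9 ovaries.

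With each fish left out, the 44.34 Mb differences ranged from 0.393 to 5.17 points between temperatures in ovaries and from -7.27 to -3.68 points between prefixes in testes at 36 °C. Over 18 CpGs of the 44.40 Mb amplicon they ranged from -0.761 to -0.491 points between gonads at 36 °C, from -0.190 to 0.0288 at 28 °C with prefix 204, where leaving out testis fish 5 turned the sign, and from -0.467 to -0.239 between temperatures in testes with prefix 204, where leaving out testis fish 5 at 28 °C gave an unadjusted p of 0.0312 (exact permutation test).

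Between testes and ovaries no paired analysis was possible, because they share 0 fish numbers. Elsewhere shared numbers were not taken as pairs in the main tests. Between temperatures in testes with prefix 128, the replicate block over such numbers gave -0.285 points (6 pairs) at the 44.34 Mb amplicon. At the 44.40 Mb amplicon its values are for all CpGs, with the shallow last CpG included, unlike the main values for that amplicon. They were 2.17 points between temperatures in testes with prefix 128 and -0.343 points in ovaries, reversed. Between prefixes in testes at 36 °C the value there was 1.65 points, with 0 CpGs called. Values of the replicate block without the shallow CpG are not given here. The precision of deeply read CpGs is limited by the number of fish, above all the 4 ovaries at 28 °C with prefix 204 at the 44.34 Mb amplicon, and the shallow CpG rests on a median of 18 reads.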
